A study of Mus musculus with 4 samples.

Results

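Solute carriers are membrane proteins that move nutrients, ions, metals, transmitters and metabolites across the plasma membrane and the membranes of organelles. Their genes share the symbol Slc, a family number, a letter and a member number. All probe sets whose only annotated gene symbol starts with Slc followed by a digit were taken, which gave 151 of 8251 annotated genes, in 40 families, on 185 of 12422 non-control probe sets. A probe set is the group of probes on the array that together give 1 signal for a transcript. Among the symbols, Slc4a1ap, Slc9a3r1 and Slc9a3r2 name proteins that bind a carrier and carry nothing themselves, and they were kept because the symbol meets the rule.

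RNA was from area CA1 of the hippocampus of young male C57BL/6J mice, an inbred laboratory strain. The 4 samples were all controls that an experimenter had handled and that had no other treatment. They were taken 1, 2, 4 and 6 hours after other mice of the experiment had their last shock, with 1 sample at each time, and no shocked mice were analysed here. Nothing in the labels tells if several mice were pooled for a sample, so differences between samples hold time, animal, dissection and array together, and p-values measure only the spread between these 4 samples.

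In hippocampus, carriers end transmission by taking glutamate, GABA and glycine back into neurons and astrocytes, and others fill synaptic vesicles. They set the chloride and proton gradients of neurons, bring glucose, lactate and amino acids across the blood vessel wall, and exchange metabolites and nucleotides across the inner mitochondrial membrane. In a tissue sample, fewer cells of a type and less RNA per cell cannot be told apart.

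Levels are linear signals as deposited, in the order of the 1-, 2-, 4- and 6-hour samples wherever 4 values follow each other. Signals of different probe sets are not compared, since probes differ in how strongly they bind. A probe set is called well above background in a sample if its signal was at least 4 times the 20th percentile of that array, which put the threshold at 142, 146, 140.0 and 134. The 19 control probe sets for Bacillus and yeast transcripts had medians of 15.2 to 19.9 and none was above 110.3, under the threshold in each sample. The 3' over 5' signal ratio of Gapdh, a glycolytic enzyme whose control probe sets show the state of the RNA, reached 4.52 in the 1-hour sample, against 1.18 to 1.37 in the others, and that of actin was 2.34, 2.00, 1.80 and 1.76, which set the 1-hour sample apart far less. The tissue label was checked against marker genes. Wfs1 (2292, 2274, 2797 and 1964), which CA1 pyramidal neurons express, was well above background in all samples, as were Nrgn and Neurod6. Of dentate gyrus markers, Dsp was so on 1 of its 2 probe sets (175, 330.0, 185 and 225), while Prox1 was under the threshold in every sample (25.1 to 59.8). Also under it were the 2 probe sets of Camk2a (5.1 to 94.9), the abundant kinase of excitatory neurons. A low signal here therefore does not show that a gene is silent.

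Of the 185 solute carrier probe sets, 92 were well above background in all 4 samples (49.7%), against 47.9% of all non-control probe sets and 49.8% of those with 1 symbol. Another 31 were so in 1 to 3 samples, and 62 in none (33.5%, against 36.4% of all, with 15.7% of all in 1 to 3 samples). The 92 stood for 84 genes, while 46 genes had no probe set above the threshold in any sample. The share of solute carriers with a clear signal was thus near that of the array as a whole. The number depends on what counts as background. With the threshold raised to 8 times it was 61 (33.0%, against 34.8% of all probe sets). Against the 95th percentile of 76 probe sets for genes of tissues other than brain (453 to 480.4), such as keratins and crystallins, it was 44 (23.8%, against 24.8% of all). Between 4 times background and that level, a signal lies in the range that such genes also gave, and 11 of those 76 probe sets were themselves well above background in all samples.

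By family, 31 of 40 families had a probe set well above background in all 4 samples. The 9 that had none were families 16, 17, 18, 26, 29, 33, 34, 46 and 51, represented by 1 to 3 probe sets each. Family 25, the mitochondrial carriers, was the most widely represented, with 24 probe sets of which 19 passed (79.2%, against 47.9% of all). Family 39, zinc importers, passed with 6 of 9, family 35, nucleotide sugar carriers, with 6 of 11, and family 6, carriers of transmitters, creatine and taurine, with 6 of 15. Family 7, amino acid carriers, passed with 2 of 10, family 22, organic ion carriers, with 2 of 10, and family 10, bile acid carriers and relatives, with 1 of 6.

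**Figure D1:**
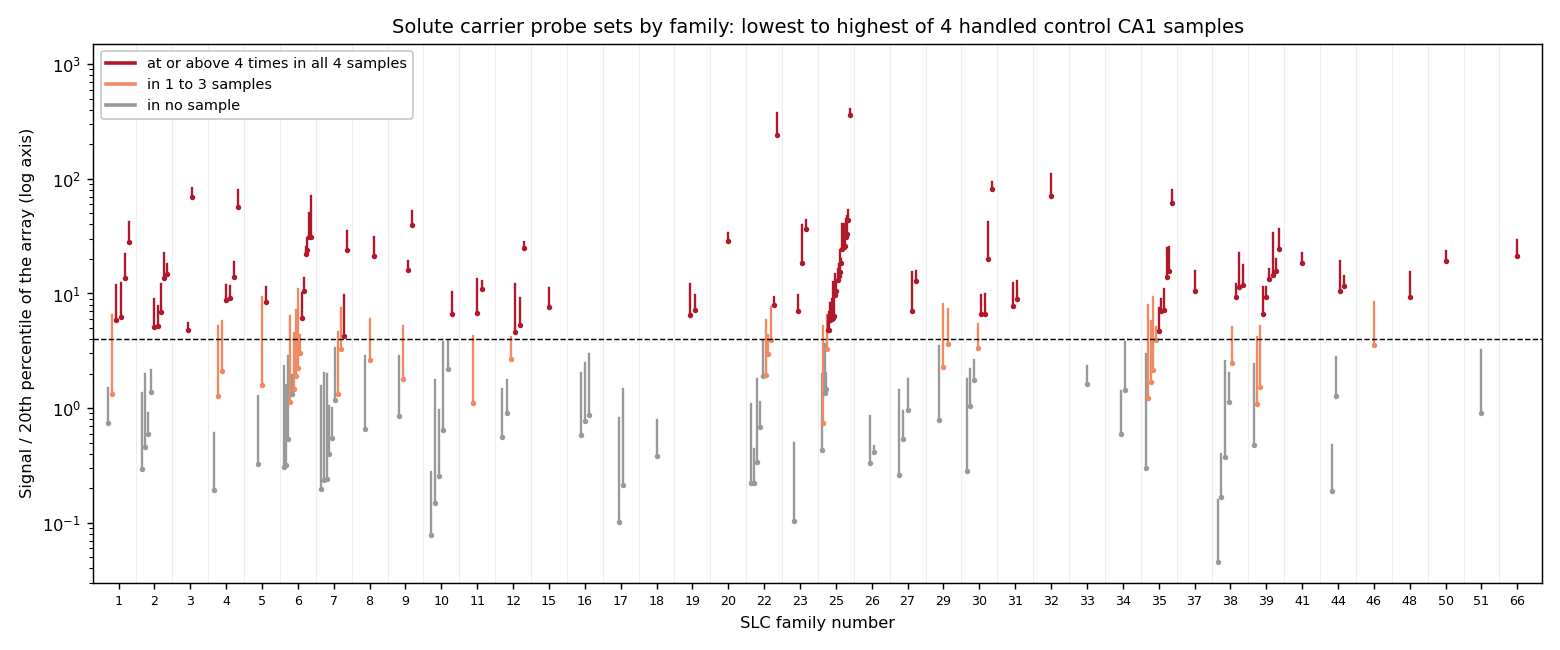
Each vertical bar is 1 of the 185 solute carrier probe sets, from its lowest to its highest value over the 4 handled control samples, as the signal over the 20th percentile of its array on a log axis, with SLC family numbers along the horizontal axis. The dot marks the lowest value and the dashed line the threshold of 4 times. Of the bars, 92 lie wholly at or above the line, and families 16, 17, 18, 26, 33, 34 and 51 lie wholly below it.

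Family 1, which holds carriers of glutamate and of neutral amino acids, was measured by 6 probe sets, of which 4 were well above background in all samples. Slc1a2, the main astrocytic carrier that clears glutamate from the synapse, had a signal of 221, 318, 371 and 409. Slc1a1, the neuronal glutamate and cysteine carrier, had 519, 661, 479 and 739 on its brighter probe set. Slc1a4, which carries serine and alanine, had 1044, 1533, 976 and 1314. The second Slc1a1 probe set had 46.8, 238, 113 and 120.3. The 1-hour sample was lowest for Slc1a2 and for this probe set, and the 4-hour sample for the brighter Slc1a1 probe set and Slc1a4. Slc1a6, a glutamate carrier best known from cerebellar Purkinje cells, had 210.3, 239, 292 and 399.5. Slc1a5, an exchanger of neutral amino acids, was under the threshold in every sample (26.2 to 52.4). No probe set carried the symbol Slc1a3, the other astrocytic glutamate carrier, in the annotation used.

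Carriers of the plasma membrane for GABA, glycine and related molecules belong to family 6. Slc6a9, the glycine carrier of glia and some neurons, had 1102, 1199, 1623 and 1696. Slc6a13, a GABA carrier known from meninges and vessels, had 443, 503, 473 and 352, while Slc6a12, the betaine and GABA carrier, was under the threshold in every sample (11.3 to 82.9). Slc6a8, which brings creatine into cells, was among the steadiest probe sets of all solute carriers, with 854, 808, 826 and 858 (SD 0.05 on the log2 scale, n = 4). Taurine enters through Slc6a6, which had 2527, 1139.8, 1725 and 1404 on its brighter probe set. The 1-hour sample was the highest there and the 2-hour sample the lowest, with an SD of 0.50 on the log2 scale. The other Slc6a6 probe set had 40.5, 86.1, 72.4 and 212, lowest in the 1-hour sample and above the threshold in the 6-hour sample alone. Slc6a15, a neuronal carrier of branched-chain amino acids, had 1075, 1012, 839.6 and 881, and Slc6a20b, a proline carrier, 253, 224, 248 and 335.

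Carriers of amine and acetylcholine neurons, whose cell bodies lie outside the hippocampus, gave no probe set of 6 that was well above background in all samples. Among all non-control probe sets 47.9% were. Of the 6, 3 were so in some samples and 3 in none, against 15.7% and 36.4% of all. Of the 8 genes listed, Slc6a5, Slc18a1, Slc18a2 and Slc5a7 had no probe set under these symbols. The carriers of dopamine (Slc6a3, 47.1 to 68.3) and, in vesicles, acetylcholine (Slc18a3, 13.6 to 27.8) were under the threshold in every sample. The noradrenaline carrier Slc6a2 had 106, 398, 78.8 and 243 on one probe set and 117, 166, 108 and 48.6 on the other. The serotonin carrier Slc6a4 had 122, 159, 105 and 128 on one probe set, above the threshold in the 2-hour sample, and 18.1 to 100.5 on the other. Slc6a2 was thus high in the 2-hour sample on both of its probe sets, and the 6-hour sample was high on one and lowest on the other.

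Slc32a1, which loads GABA and glycine into the vesicles of inhibitory neurons, had 3596, 2599, 3469 and 3671. The 2-hour sample stood below the other 3, which lay close together. Of the markers of interneurons, Gad1, which makes GABA, had 3952, 4258, 4085 and 4280.2, and the neuropeptide genes Sst and Npy had 11953, 8664, 11526 and 9954, and 2572, 1646, 2455 and 2171. Sst and Npy were thus lowest in the 2-hour sample, as Slc32a1 was, and Gad1 was not. The other markers on the list were lowest elsewhere, both probe sets of Pvalb in the 4-hour sample, Cck in the 6-hour sample and Vip, Calb2 and Gad2 in the 1-hour sample. Of the 9 interneuron probe sets 8 were well above background in all samples (88.9%, against 47.9% of all non-control probe sets). The 9 summed to 40071, 34081, 36996 and 34494, a sum made up largely of Cck (17351, 15308, 15019 and 13808) and Sst. The part of interneuron content in the Slc32a1 value was not tested. Slc30a3, which loads zinc into the glutamate vesicles of hippocampal neurons, had 2918, 3418, 3112 and 3085 on its brighter probe set, with an SD of 0.11 on the log2 scale. The vesicular glutamate carriers Slc17a6, Slc17a7 and Slc17a8 had no probe set under these symbols. The 1 gene of family 17 that had, the renal phosphate carrier Slc17a1, was under the threshold in every sample (3.6 to 49.5).

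The genes of the surrounding glutamate and GABA cycle were counted beside the carriers. Of 9 enzymes listed, 6 had probe sets, and 4 of these had one well above background in all samples. They were Gad1, Glul, which makes glutamine in astrocytes, Got2, a mitochondrial aminotransferase, and Glud1, glutamate dehydrogenase. Got1 had 8.8 to 45.5 and Gad2 10.2, 136, 80.7 and 156. Neither the trend over hours nor any comparison of 1 sample with the other 3 called any of the 5 tested probe sets of these enzymes (limma, adjusted p under 0.05). Of the Na,K-ATPase, whose sodium gradient drives many of these carriers, the beta subunits Atp1b1, Atp1b2 and Atp1b3 each had a probe set well above background in all samples.

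**Figure D2:**
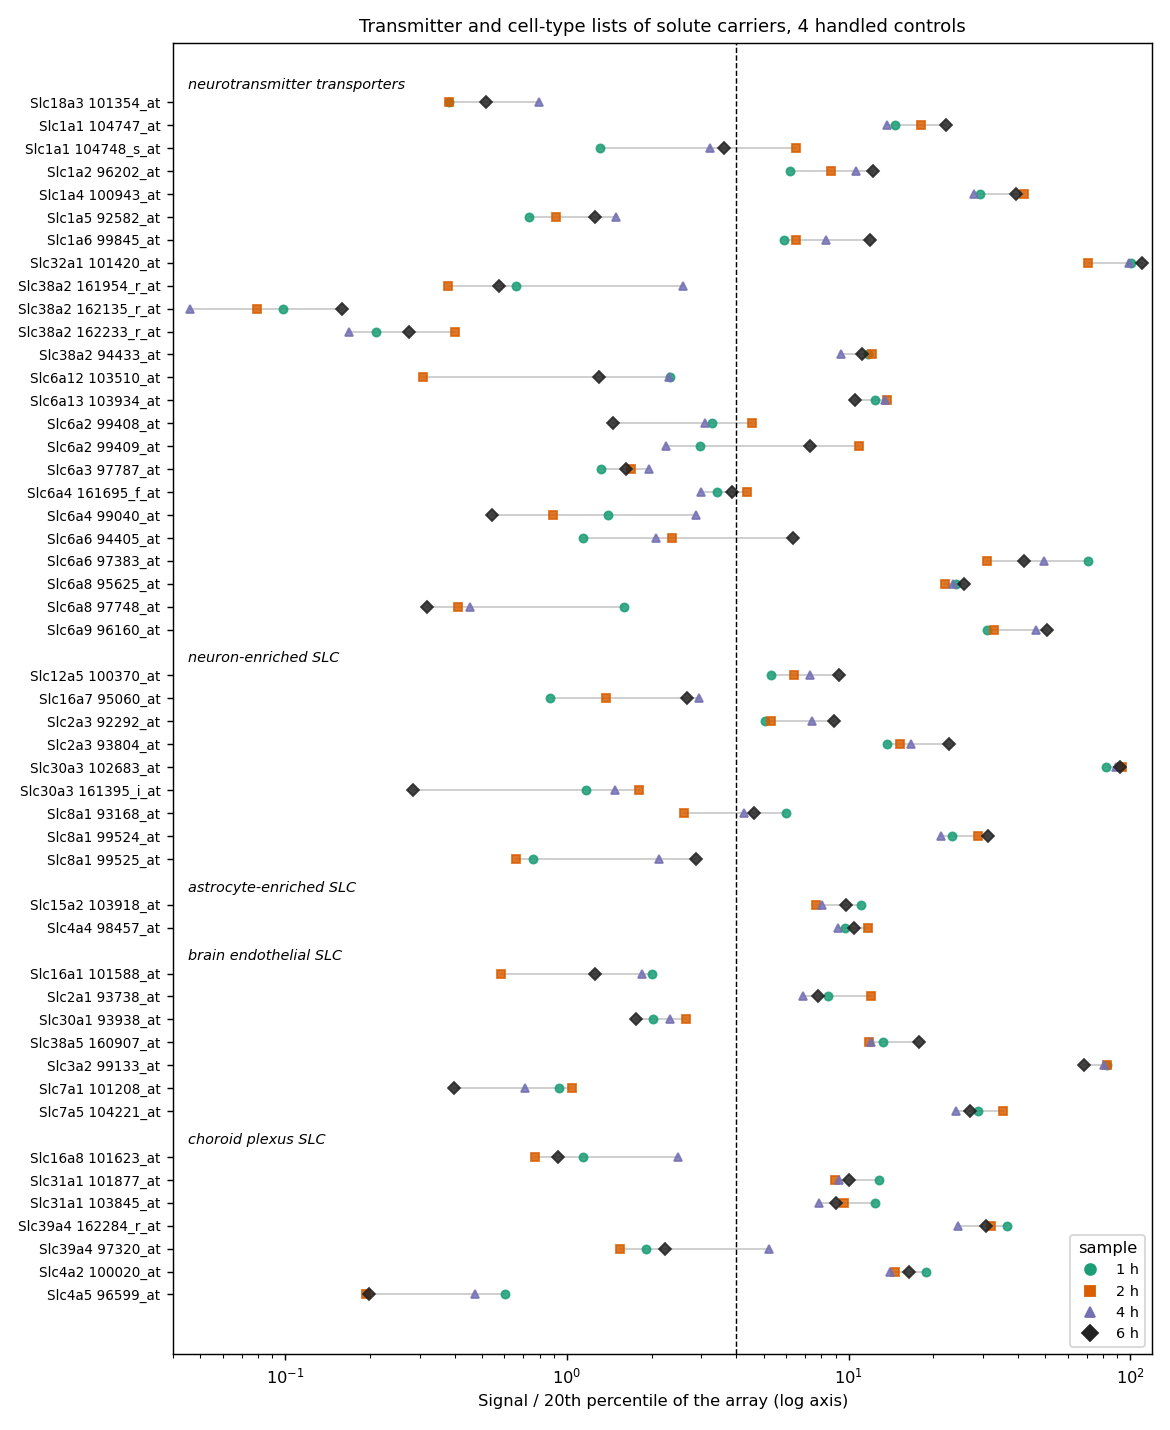
Probe sets of the transmitter, neuron, astrocyte, endothelial and choroid plexus lists are shown in rows, each once under the first list that holds it, with the signal over the 20th percentile of the array on a log axis and a marker for each of the 4 samples. The dashed line is the threshold of 4 times. Slc32a1 and the brighter Slc30a3 probe set lie far to the right of it in all samples, Slc18a3 and Slc6a3 lie left of it in all samples, and positions are not comparable between rows.

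Sugar carriers of family 2 were well above background on 5 of 9 probe sets. Slc2a1, the glucose carrier of brain endothelium and astrocytes, had 302, 439, 241 and 261, highest in the 2-hour sample. Slc2a3, the neuronal glucose carrier, had 486, 559.6, 585 and 759 on one probe set and 179.8, 194, 261 and 297 on the other, and both were lowest in the 1-hour and highest in the 6-hour sample. Slc2a8, an intracellular glucose carrier, had 529.6, 608, 627 and 594 on its brighter probe set. Its other probe set was under the threshold in every sample (15.4 to 70.7). Slc2a5, the fructose carrier that microglia express in brain, had 235, 282, 229 and 173. The liver and the muscle and fat carriers, Slc2a2 and Slc2a4, were under the threshold in every sample. Slc37a4, which brings glucose 6-phosphate into the endoplasmic reticulum, had 373, 401, 548 and 461. Slc50a1, a sugar carrier of the Golgi, had 798, 707, 709.9 and 781.

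Lactate and other monocarboxylates cross membranes through family 16, and all 3 of its probe sets were under the threshold in every sample. Slc16a1, of endothelium and glia, had 71.6, 21.4, 64.8 and 42.2. Slc16a7, the neuronal member, had 30.9, 50.4, 103 and 89.2, and Slc16a8, of retina and choroid plexus, 28.1 to 86.7. The partner proteins and enzymes of lactate transport did give clear signals. Bsg, which escorts family 16 carriers to the cell surface, had 1776, 4308, 4514 and 4288. Ldha and Ldhb, which convert pyruvate and lactate, had 5116, 5738, 5069.8 and 6113, and 1742, 2049, 1937 and 1925 on the brighter Ldhb probe set. Bsg was thus lower in the 1-hour sample than in the other 3 (log2 difference -1.33, limma adjusted p = 0.0062), beside the Gapdh ratio of 4.52 there, and the part of RNA quality in this was not tested.

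Among the amino acid carriers of family 7, the light chains work as pairs with a heavy chain of family 3. The heavy chain Slc3a2 had 2954, 3018, 2818 and 2296, and its partner Slc7a5, which brings large neutral amino acids through the blood vessel wall, had 1029.5, 1290.0, 839.5 and 903. Slc7a8, a light chain with a similar range of substrates, had 150.5, 300.3, 244 and 324, just over the threshold in the 1-hour sample. The cystine and glutamate exchanger Slc7a11 (8.8 to 65.8), the arginine carrier Slc7a1 (13.3 to 38.3) and the light chains Slc7a6 and Slc7a7 were under the threshold in every sample. Slc7a2 (264, 126, 226 and 109), another carrier of arginine and lysine, crossed the threshold in the 1- and 4-hour samples. In family 38, Slc38a2, a sodium-coupled glutamine carrier, had 419, 444, 328 and 372 on 1 of its 4 probe sets. Slc38a5, a glutamine carrier, had 472, 432, 420.2 and 595. Slc38a10, a less studied member, had 409, 590.3, 598 and 746 on its brighter probe set and 40.3 to 68.2 on the other.

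Ion carriers of neurons and glia were spread over several families. Slc12a5, the potassium and chloride carrier that keeps chloride low in mature neurons, had 188, 234, 256 and 308, lowest in the 1-hour and highest in the 6-hour sample. Slc12a2, which brings chloride into cells, had 916, 1032, 869 and 921 (SD 0.10 on the log2 scale). Slc12a4, a potassium and chloride carrier found in many tissues, had 164, 335, 309 and 403. The kidney members Slc12a1 and Slc12a3 were under the threshold in every sample (18.6 to 64.6). Slc8a1, the sodium and calcium exchanger, had 827, 1058, 745 and 1047 on its brightest probe set. In family 4, the chloride and bicarbonate exchanger Slc4a3, abundant in brain and heart, had 2281, 2089, 2819 and 2521. The related Slc4a2 had 669.5, 535, 489.8 and 548, and Slc4a4, the sodium and bicarbonate carrier of astrocytes, 345, 428, 322 and 348. Slc4a1, the anion exchanger of red blood cells, had 205, 152, 105 and 70.9, and the haemoglobin gene Hba-a1 beside it had 3185, 2590, 2834 and 2144. Both were highest in the 1-hour and lowest in the 6-hour sample. Alas2, the other blood gene measured, had 102, 181, 31.5 and 82.0, highest in the 2-hour sample, and the part of blood in the Slc4a1 values was not tested. Slc9a8, a sodium and proton exchanger of the Golgi, had 568, 699, 636 and 612. Slc20a1, a phosphate carrier found in most cells, had 1012, 1049.6, 1074 and 1123 with an SD of 0.05 on the log2 scale, and Slc41a1, a magnesium carrier, 795, 759, 723 and 612.

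Mitochondrial carriers formed the largest family, with 19 of 24 probe sets and 16 of 20 genes well above background in all samples. By probe set the share was 79.2%, against 47.9% of all non-control probe sets. Slc25a4, which exchanges ADP and ATP in heart, muscle and brain, had 13303, 13119.7, 14059 and 13552, and its samples lay within an SD of 0.11 on the log2 scale. Slc25a5, a close relative with the same substrate, had 877, 1029, 984 and 1355 on a probe set whose ending marks it as shared within a gene family. Another Slc25a5 probe set, with relaxed design rules, had 214, 262, 315 and 295. The one without a marked ending had 112.5, 159.6, 26.1 and 173, under the threshold in the 1- and 4-hour samples. Slc25a11, the oxoglutarate carrier, had 1592, 1142, 1293 and 1125, and Slc25a1, the citrate carrier, 924, 1013, 1166 and 1140.3 on its brighter probe set. Slc25a39, needed for glutathione in mitochondria, had 1551, 1585, 1888 and 1639, and Slc25a17, a peroxisomal carrier, 1512, 1309, 1144 and 1572. Slc25a25, a calcium-regulated carrier of ATP and phosphate, had 903, 1137, 1422 and 1259. Slc25a28, which brings iron into mitochondria, had 698, 676, 662 and 664, the narrowest range of the 92 probe sets after quantile normalization (0.12 on the log2 scale). Another 8 genes passed with signals of 174 to 846. They were Slc25a14, Slc25a15, the ornithine carrier, Slc25a20, the carnitine carrier, Slc25a36, a pyrimidine nucleotide carrier, Slc25a44, Slc25a45, Slc25a51, which brings NAD into mitochondria, and Slc25a53. Slc25a3, the phosphate carrier that all respiring cells use, was listed at 52, 57.3, 71.2 and 60.3, under the threshold in every sample. The liver-type members Slc25a47 and Slc25a48 were under it too.

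Metal carriers were measured in families 11, 30, 31, 39 and 41. Zinc exporters of family 30 included, besides Slc30a3, Slc30a4 with 1505, 861, 705 and 843 on its brighter probe set. Slc30a5 had 248, 240.3, 230.4 and 326 on its brighter probe set, and Slc30a9 had 350.3, 311, 232 and 327. The other Slc30a4 probe set was under the threshold in every sample (37 to 80.9). The other Slc30a5 probe set (194, 124, 130 and 111) was above it in the 1-hour sample alone. Slc30a1, the exporter of the plasma membrane, was under the threshold in every sample (58.6 to 96.6). Zinc importers of family 39 were well above background for 6 of 7 genes. Slc39a7, which releases zinc from the endoplasmic reticulum, had 518, 1072, 1179 and 924. Slc39a1 had 579, 561, 467 and 535 on its brighter probe set and 85.6, 39.7, 146.5 and 76.2 on the other. Slc39a3 had 626, 579.7, 704 and 578, Slc39a6 333, 395, 395 and 373 and Slc39a9 252, 244, 394 and 356. Slc39a4, the importer of the gut, had 1299.6, 1176, 858 and 1031 on a probe set with relaxed design rules, and 68.2, 56.3, 183 and 74.3 on the other. Slc11a2, which brings in iron, had 478, 322, 328 and 226 on its first probe set and 413, 399, 421 and 431 on the other. Slc31a1, the copper importer, had 457, 328, 324 and 335, and 444, 354, 274 and 302, so that the 1-hour sample was highest on both of its probe sets. Slc48a1, a haem carrier, had 404, 342, 445 and 518.

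Nucleotide sugars are brought into the Golgi and endoplasmic reticulum by family 35, in which 6 of 10 genes were well above background in all samples. Slc35b1 had 2730.4, 2268, 2565 and 2686. Slc35b2, which supplies the sulfate donor of the Golgi, had 889, 508, 740.2 and 674, and Slc35c2 559, 818, 789 and 849.8. Slc35a1, which carries the sialic acid donor, had 268, 171, 174 and 194, Slc35d1 248, 291, 312 and 277, and Slc35e4 316, 263, 346 and 366. Slc35a2, which carries the galactose donor, had 158, 153, 138 and 169.6, so that the 4-hour sample alone was under the threshold.

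Vitamins, lipids and other substrates were the cargo of the remaining families. Slc23a2, which brings vitamin C into neurons, had 1561, 1329, 1265 and 1465, while Slc23a1, the vitamin C carrier of gut and kidney, was under the threshold in every sample (3.8 to 17.7). Slc23a3, a relative of both, had 659, 1086, 1314 and 1329.8, and 348, 285, 328 and 234, lowest in the 1-hour sample on the first probe set and highest there on the second. Slc19a1, the folate carrier, had 346, 316, 251 and 315, and 429, 239, 334 and 231. Slc5a6, which carries biotin and pantothenate, had 341, 308, 396 and 279. Fatty acid carriers of family 27 were well above background for Slc27a1 (459.7, 546, 532 and 524) and Slc27a4 (249, 453, 389 and 512), and under the threshold in every sample for Slc27a2, Slc27a3 and Slc27a5. Slc44a1, a choline carrier, had 687, 387, 614 and 599, and Slc44a4 432, 425, 501 and 419 on 1 of its 2 probe sets. Slc22a17, a brain-enriched member of the organic ion family known as a receptor of lipocalin, had 8576, 10544, 13199.6 and 11738. Slc15a2, the peptide carrier of astrocytes and choroid plexus, had 395, 280.4, 283 and 326. Slc10a3 had 366, 299, 233 and 267, and Slc66a2 798, 1060.5, 899 and 703.

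The binding proteins that share the symbol were Slc9a3r1, a scaffold under the cell membrane, with 1685, 1460.0, 1828 and 1487, Slc4a1ap with 347, 321, 379 and 397, and Slc9a3r2 with 143, 65.7, 156 and 174. The first 2 were well above background in all samples, and Slc9a3r2 in all but the 2-hour sample.

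A list of carriers known from kidney, liver, gut, fat and blood cells served as a contrast. Of 23 probe sets for 20 such genes, 2 were well above background in all samples (8.70%, against 47.9% of all probe sets), 3 in some and 18 in none. The 2 were Slc22a12, the urate exchanger of the kidney, with 331, 330.2, 277 and 276, and Slc3a1, the renal heavy chain, with 180.0, 176, 192 and 165. Both lay under the level of 453 to 480.4 that the probe sets for genes of other tissues marked. The list did not hold Slc39a4, Slc6a18, Slc17a1 and Slc23a1, which are described here as carriers of gut or kidney. Of these, Slc39a4 was well above background in all samples on 1 of its 2 probe sets (858 to 1299.6), over that level too. Slc6a18 was above the threshold in 3 samples, and the share thus depends on the choice of genes. Those above the threshold in some samples were Slc4a1, Slc22a18 and Slc11a1. The 18 were probe sets for Slc2a2, Slc2a4, Slc5a1, Slc7a9, Slc10a1, Slc10a2, Slc12a1, Slc12a3, Slc22a2, Slc22a4, Slc22a6, Slc27a2, Slc27a5, Slc34a1 and Slc34a2.

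The genes not yet described were below the threshold in at least 1 sample. Slc25a10, the mitochondrial dicarboxylate carrier, had 116.0, 169, 226 and 182, under it in the 1-hour sample. Slc46a1, which carries folate with protons, had 299, 149, 245 and 119.5, under it in the 6-hour sample. Slc5a11, a carrier of inositol, stood above it in the 2-hour sample alone (57.1, 341, 74.3 and 77.0), as did Slc22a5, the carnitine carrier (138, 214, 76.8 and 65.1). Slc4a8, Slc7a3, Slc12a7, Slc22a23 and Slc38a4 crossed it in 1 or 2 samples, with no signal above 180.5. Slc9b2, Slc10a6, Slc22a21, Slc22a30, Slc26a1, Slc26a2, Slc29a2, Slc33a1, Slc35a4, Slc39a8, Slc44a2 and Slc51a crossed it in none.

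Near the threshold, the probe sets just over it were Slc7a8 and Slc12a4, with a lowest value of 4.23 and 4.61 times background, and those just under it were Slc35a2 and Slc22a18, with 3.95 and 3.89 times.

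Carriers typical of a cell type were then set beside markers of that cell type. The 3 astrocytic carriers with a probe set, Slc1a2, Slc4a4 and Slc15a2, were all well above background in all samples. So were 9 of 10 probe sets of astrocyte markers such as Aldoc (11024, 12442, 10462 and 10948), against 47.9% of all non-control probe sets. The summed signal of the astrocyte markers was 24169, 24725, 20742 and 22238, lowest in the 4-hour sample. Of the neuronal carriers, 6 of 7 genes had a probe set well above background in all samples. By probe set it was 7 of 12 (58.3%, against 47.9% of all non-control probe sets). Of 9 tested probe sets in the neuronal list, 2 were higher in the 1-hour sample than the mean of the other 3 and 8 were higher in the 6-hour sample, with medians of -0.19 and 0.25 on the log2 scale, against 0.05 and 0.00 over all tested probe sets. The medians for CA1 and other excitatory neuron markers (4 tested) were 0.04 and -0.14, and those for interneuron markers (8 tested) 0.09 and 0.00. Oligodendrocyte markers had 2 of 10 tested probe sets higher in the 1-hour sample and 9 of 10 in the 6-hour sample. Their medians were -0.28 and 0.40. For Mobp the 1-hour difference was -1.03, -1.55 and -2.24 on the log2 scale, but 0.14 on its brightest probe set. The part of oligodendrocyte content, or of RNA quality in the 1-hour sample, in the values of the neuronal carriers was not tested. No probe set of the neuronal list passed the test in any of these comparisons (limma, adjusted p under 0.05).

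Endothelial and choroid plexus carriers differed between samples by similar small amounts. The 4 tested endothelial carriers (Slc2a1, Slc3a2, Slc7a5 and Slc38a5) had a median difference of 0.35 on the log2 scale in the 2-hour sample, against 0.01 over all. In that sample 3 of the 4 were higher, against 51.5% of all tested probe sets. Of 6 tested endothelial marker probe sets, 5 were higher in that sample, with a median of 0.59, and their part in the carrier values was not tested. The summed signal of 10 endothelial marker probe sets was 2806, 2834, 2369.7 and 1882. Of these, 3 were well above background in all samples (30%, against 47.9% of all non-control probe sets). Of the choroid plexus list, all 4 tested probe sets were higher in the 1-hour sample, against 54.7% of all tested probe sets. They were for Slc4a2, Slc39a4 and, with 2 of them, Slc31a1. Their median difference was 0.46, against 0.05 over all. Beside this, the choroid plexus marker Ttr had 2246, 199, 353 and 143, with an adjusted p of 0.014 in the limma fit of the 1-hour sample. The 10 probe sets of that marker list summed to 5436, 2587, 3130.4 and 2328. Of these, 4 were well above background in all samples (40%, against 47.9% of all) and those of Folr1 in none. The part of choroid plexus in the carrier values was not tested, and Slc4a5 and Slc16a8, the more restricted members of the list, were under the threshold in every sample. Slc39a4, described above as the importer of the gut, entered through its probe set with relaxed design rules. Its other probe set (68.2, 56.3, 183 and 74.3) was highest in the 4-hour sample and did not pass the filter for testing. No tested carrier of either list passed the test (limma, adjusted p under 0.05).

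Several genes had more than 1 probe set, which gave a check on the signal itself. Of 29 such genes, 7 had all their probe sets well above background in all samples, 8 had none, and 14 had some that were and some that were not. Slc38a2 had 1 probe set at 328 to 444 and 3 at 1.6 to 90.3. Slc30a3 had 1 at 2918 to 3418 and another at 9.5 to 65.8, and Slc6a8 had 1 at 808 to 858 and another at 10.6 to 56.6. The part of the transcript that each probe set targets was not used here. In 14 of 29 genes the call thus turned on the probe set.

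**Figure D3:**
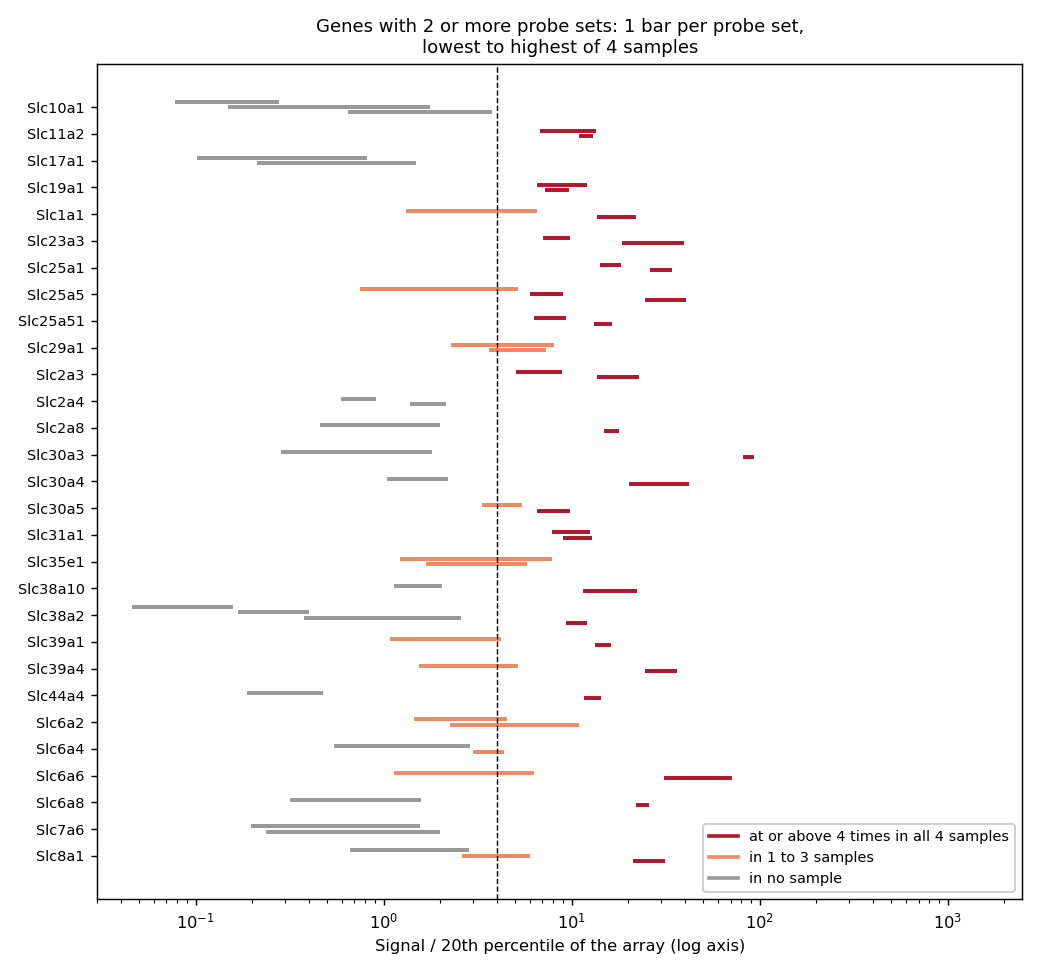
For each of 29 genes with 2 or more probe sets, a horizontal bar per probe set spans the lowest to the highest of the 4 samples, as the signal over the 20th percentile of the array on a log axis. The dashed line is the threshold of 4 times, and in 14 genes, such as Slc38a2, Slc30a3 and Slc6a8, bars of the same gene lie wholly above it and wholly or partly below it.

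The spread over the samples was examined for the 116 solute carrier probe sets that passed a filter on low values, after quantile normalization and with values under 35.1 raised to that floor. Their median SD was 0.26 on the log2 scale, against 0.25 over all 7453 tested probe sets. A range of 1 log2 unit or more was found in 22 of the 116, against 17.9% of all. In 17 of the 22 (77.3%, against 70.1% of all probe sets with such a range) the 1-hour sample lay at one end of the range, and without it 11 of 115 had such a range (9.57%, against 8.95% of all). Among the 92 probe sets well above background in all samples, 7 had it. They were Slc12a4, Slc6a6, the first Slc11a2 probe set, Slc39a7, Slc25a44, Slc30a4 and Slc7a8. The 1-hour sample was the highest for Slc6a6, Slc11a2 and Slc30a4, and the lowest for Slc12a4, Slc39a7 and Slc7a8. For Slc25a44 the 2- and 6-hour samples (465 and 379) were above the 1- and 4-hour samples (247 and 212). The next widest of the 92 was Slc27a4. At the steady end stood Slc25a28, Slc6a8, Slc20a1, the other Slc11a2 probe set, Slc27a1 and Slc50a1, with ranges of 0.12 to 0.20 on the log2 scale. The 2 probe sets of Slc11a2 were thus among both the widest and the steadiest.

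**Figure D4:**
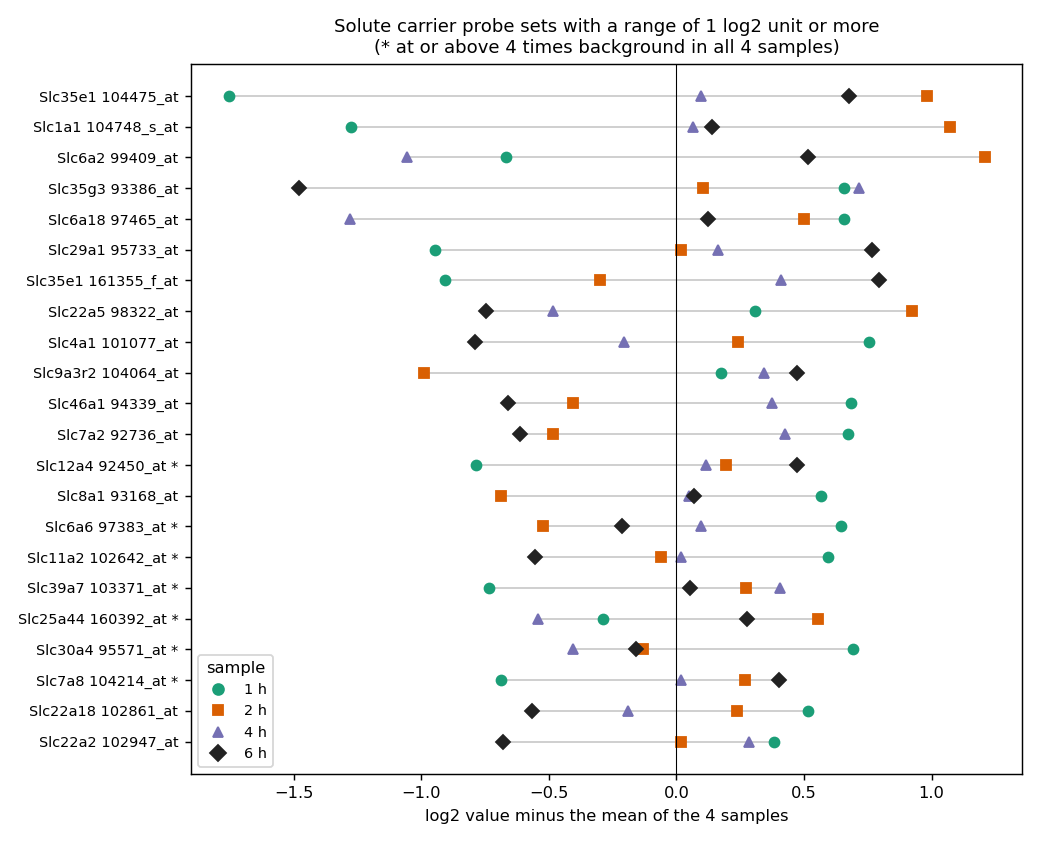
Points give the log2 value of each of 22 solute carrier probe sets minus its own mean over the 4 samples, for the probe sets with a range of 1 log2 unit or more, widest at the top. Markers stand for the samples and a star marks the 7 probe sets well above background in all samples. The 1-hour sample is at one end of the range in 17 of the 22, or 77.3%, against 70.1% of all probe sets with such a range.

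Ranges wider than that of Slc12a4 belonged to probe sets that fell under the threshold in at least 1 sample. Slc35e1, a member of the nucleotide sugar family with an unknown substrate, had 43.3, 289, 149.7 and 231 on one probe set and 59.7, 93.7, 143 and 194 on the other, lowest in the 1-hour sample on both. Slc35g3 had 312, 220.3, 327 and 71.6, Slc6a18, an amino acid carrier of the kidney, 255, 239.8, 66.5 and 181, and Slc29a1, the nucleoside carrier, 81.3, 164, 174 and 269 on one probe set and 253, 136, 127 and 244 on the other. For Slc29a1 the 1-hour sample was the lowest on the first and the highest on the second, so its probe sets did not agree on direction.

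Each sample was next compared with the other 3, which asks how far single arrays lay from the rest and not what a time does, since each time had 1 sample. The 1-hour sample stood furthest out on the array as a whole, with an adjusted p under 0.05 (limma) in 2.35% of 7453 tested probe sets. None of 116 solute carrier probe sets was called there, 18 had an unadjusted p under 0.05 (15.5%, against 15.8% of all), and 13 of the 18 were lower. The closest were Slc35e1 (its wider-ranging probe set, log2 difference -2.34, SD of the other 3 0.45, adjusted p = 0.056), Slc39a7 (-0.98, SD 0.18, adjusted p = 0.058), Slc30a4 (0.92, SD 0.15, adjusted p = 0.061) and Slc22a17 (-0.59, SD 0.16, adjusted p = 0.068) in the limma fit. On the values as deposited, 4 of 116 were called in that fit (against 3.65% of all), Slc35e1, Slc39a7, Slc30a4 and the first Slc23a3 probe set. With equal medians the first 3 of them were called (against 2.98% of all). Without the 4-hour sample 3 of 116 were called (against 3.25% of all), Slc35e1, Slc22a17 and Slc6a6. All of these stand beside the Gapdh ratio of 4.52 in the 1-hour sample, and its part in them was not tested.

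In the 2-, 4- and 6-hour samples 0 of 116 were called (limma, adjusted p under 0.05, as in 0% of all tested probe sets), and 3, 1 and 1 had an unadjusted p under 0.05, against 2.64%, 2.76% and 2.27% of all. Those with the smallest p were Slc44a1 in the 2-hour sample (387, against 599 to 687, log2 difference -0.75), Slc6a18 in the 4-hour sample (-1.71) and Slc35g3 in the 6-hour sample (-1.97). Differences of 2-fold or more from the mean of the other 3 were few. The 1-hour sample had 1 solute carrier probe set as far above and 5 as far below, against 1.78% and 4.56% of all. The 2-hour sample had 4 and 1 (1.27% and 1.72% of all), the 4-hour sample 0 and 2 (1.07% and 1.93%) and the 6-hour sample 2 and 2 (1.49% and 1.61%).

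**Figure D5:**
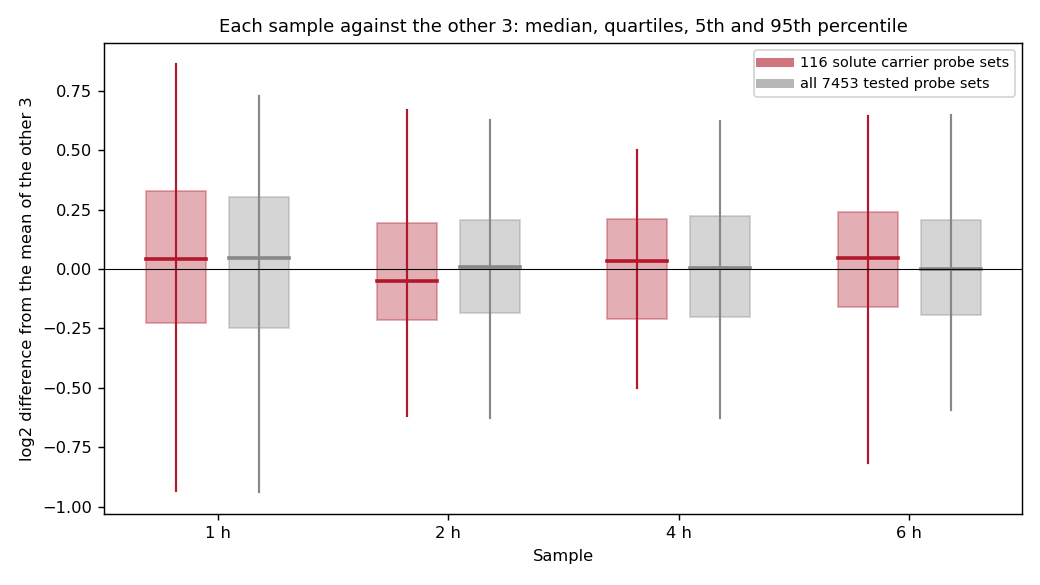
For each sample, the log2 difference from the mean of the other 3 is shown as the median (thick line), the quartiles (box) and the 5th to 95th percentile (thin line), for 116 solute carrier probe sets on the left and all 7453 tested probe sets on the right. The medians of the solute carriers lie between -0.05 and 0.05 in the 4 samples, and those of all tested probe sets between 0.00 and 0.05.

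A linear trend over the 4 times gave no call among the solute carriers or on the whole array (0 of 116 and 0% of 7453, limma, adjusted p under 0.05). With an unadjusted p under 0.05 there were 10 (8.62%, against 6.24% of all), 6 with a positive and 4 with a negative trend. The smallest p belonged to Slc29a1 (first probe set, 1.47 on the log2 scale between 1 and 6 hours), Slc23a3 (first probe set, 0.87) and Slc6a9 (0.64), each with an adjusted p of 0.74 in the limma fit. With 4 samples the fit left 2 residual degrees of freedom, and the count of 0 sets no limit on the size of a trend, small or large.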

How the data were processed

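The deposited table holds 1 intensity per probe set and array on a linear scale. The authors seem to have scaled the arrays alike, judging by the deposited values, whose mean with 2% trimmed from either end was 500.3 in all 4 columns. Software and chip chemistry were not stated, and no detection call was used. Of 12422 non-control probe sets, 10833 had 1 gene symbol in the array's annotation table, and all 185 solute carrier symbols matched current RefSeq symbols (GRCm38.p6) by gene identifier. Endings such as _f_at, _r_at, _i_at, _g_at and _s_at were read as marks of shared or less strictly designed probe sets, which 26 of the 185 carried.

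Background was judged on the values as deposited. For spread and tests, values were quantile normalized, raised to a floor at the 20th percentile (35.1), and log2 was taken. Probe sets with a mean at or above the 40th percentile (7453) were tested with limma 3.58.1 in R 4.3.3 (eBayes with an intensity trend), two-sided, with Benjamini-Hochberg adjustment over all of them. Time entered as a linear term. In the comparison of a sample with the other 3, the single sample was assumed to vary as they did. The fits were tested on simulated data. The number of arrays limits the precision. Figures were drawn with matplotlib 3.10.9.

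The members and gene lists were chosen with earlier results of these data known. Genes were named by a rule that took the called probe sets, the transmitter and cell-type lists, genes with several probe sets, those nearest the threshold, the 8 widest and 6 steadiest of the clear ones, and every member well above background in all samples. Slc6a18, Slc35g3, Slc7a2 and the other members outside it, and genes of the marker lists, were named after their values were seen.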

Additional observations from a re-analysis of the deposited data

Results flagged for a closer look

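Among the 103 named probe sets that were tested and above the floor in all samples, 4 had a single sample far from the other 3 by Dixon's criterion for 4 values at the 95% level. Chance gives about 1 in 20 groups. Slc32a1, the vesicular GABA carrier, was low in the 2-hour sample, with 2599 against 3469 to 3671 in the others. Slc31a1, the copper importer, was high in the 1-hour sample on one of its probe sets, with 457 against 324 to 335. Slc35c2 was low in the 1-hour sample, with 559 against 789 to 849.8. Slc11a2 was low in the 2-hour sample on the steadier of its probe sets, with 399 against 413 to 431, a gap that is large only relative to a narrow range.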

How the results depend on the processing

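The count of 92 probe sets and 31 families well above background moved to 61 probe sets at 8 times background, and to 44 probe sets in 20 families against the genes of other tissues, as the share of all probe sets did (34.8% and 24.8%). It was 109 at 2 times, and 104 against the highest Bacillus or yeast control, an alternative chosen after seeing the data. Leaving out each sample gave 94 to 95 probe sets and 31 to 32 families. The 22 probe sets with a range of 1 log2 unit became 50 with no filter, where 185 were tested, and 11 to 18 with 1 sample left out, the lowest without the 1-hour sample. For the 1-hour sample against the others, 0 calls became 4 on deposited values (3.65% of all probe sets called), 3 with equal medians (2.98%), 4 with no filter (2.94%), and 0 to 3 with 1 sample left out. Those called with no filter were other probe sets, all under the threshold in every sample, of Slc2a8, Slc34a2, Slc5a1 and Slc6a8. In each of them the other 3 samples were raised to the same floor of 35.1, so these had no spread by construction. Calls with no filter can therefore rest on the floor alone, in any sample. With no filter, the 2-, 4- and 6-hour samples had 3, 3 and 5 calls (1.75%, 1.83% and 1.70% of all). The trend had 0 calls under each alternative run. Of 103 single probe sets, 1 changed sign, Slc25a4 in the 1-hour sample (log2 difference -0.20, and 0.0086 with equal medians). No paired analysis was possible because there is 1 group. With 1 array a time, no difference can be tied to time.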
